A study of Mus musculus with 18 samples.

Results

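The 10 genes described here are the TGF-beta ligands Tgfb1, Tgfb2 and Tgfb3, the TGF-beta receptors Tgfbr1 and Tgfbr2, the bone morphogenetic protein (BMP) ligands Bmp2 and Bmp4, and the inhibitors of differentiation Id1, Id2 and Id3. They were taken by symbol, whatever their values, from a table of 35642 gene symbols in 18 libraries of polyA RNA from mouse pancreatic tumour cells. All 10 were found. Levels are in TPM (a gene's share of all transcripts of a library, already divided by transcript length), so levels of different genes can be set side by side.

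The cells came from tumours of KPCY mice, which carry KrasLSL-G12D/+, Trp53 LSL-R172H/+, Pdx1-Cre and an R26LSL-Yfp reporter, with Cre driven from the pancreatic Pdx1 promoter, and which had or lacked a floxed Mcu gene. Mcu encodes the pore subunit through which calcium enters mitochondria, and the series compared cells with and without it. In line 1151, Mcu was deleted by Cre, and the same knockout cells carried either an empty vector (3 libraries) or re-expressed MCU (3 libraries); both were kept with 2 µg/mL puromycin. In line 2838, the wild-type clones 15 and 22 carried an empty vector (3 libraries each), and the clones 17 and 42 had a CRISPR knockout (3 libraries each), for which the labels name no vector. All cells were untreated and grown in DMEM with 10% serum. Each 2838 group is 1 clone. The 1151 libraries are batch 1 and the 2838 libraries batch 2, so line and batch cannot be told apart and levels were not tested between lines. Whether the 3 libraries of a group are separate cultures is not stated in the labels. In fits on libraries, the p-values measure only the spread between these libraries, which may be technical. In fits on clone or group means, they measure the spread between the clones of line 2838.

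TGF-beta ligands are secreted in a latent form bound to their propeptide. Once released, they bind Tgfbr2, which recruits and phosphorylates Tgfbr1, and Tgfbr1 in turn phosphorylates Smad2 and Smad3. BMP ligands use related receptors that act on Smad1, Smad5 and Smad9, and the Id genes are the best known direct targets of those Smads. Id proteins lack a DNA-binding domain and hold basic helix-loop-helix E proteins away from DNA. In the pancreas, TGF-beta signalling is known both for restraining growth of early lesions and for driving epithelial-mesenchymal transition in carcinoma cells.

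In the mm10 annotation (GENCODE release M21), Tgfb1 lies at chr7:25687002-25705077 on the plus strand, Tgfb2 at chr1:186622792-186705989 and Tgfb3 at chr12:86056745-86079041, both on the minus strand. Tgfbr1 lies at chr4:47353222-47414931 (plus) and Tgfbr2 at chr9:116084293-116175360 (minus). Bmp2 lies at chr2:133552159-133562885 (plus) and Bmp4 at chr14:46383520-46390669 (minus). Id1 lies at chr2:152736251-152737410 (plus), Id2 at chr12:25093799-25097140 (minus) and Id3 at chr4:136143497-136145755 (plus). All 10 are protein-coding.

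The 250 bases before the annotated start are shown for Tgfb1 and Bmp4, a pair of ligands whose transcripts moved in opposite directions in line 1151, and for the receptors Tgfbr1 and Tgfbr2, which were not called there. They are RefSeq sequences of build GRCm38.p6, printed 5′ to 3′ along the gene's strand. Capitals mark every match, on either strand, to 4 motifs: CAGAC (a Smad box), GGCGCC (a Smad element of BMP target genes), GGGCGG (the GC box, CCGCCC on the other strand) and TGANTCA (an AP-1 site). The windows are chr7:25686752-25687001 (plus), chr14:46390670-46390919 (minus), chr4:47352972-47353221 (plus, the first of 2 listed starts) and chr9:116175364-116175613 (minus).
Tgfb1: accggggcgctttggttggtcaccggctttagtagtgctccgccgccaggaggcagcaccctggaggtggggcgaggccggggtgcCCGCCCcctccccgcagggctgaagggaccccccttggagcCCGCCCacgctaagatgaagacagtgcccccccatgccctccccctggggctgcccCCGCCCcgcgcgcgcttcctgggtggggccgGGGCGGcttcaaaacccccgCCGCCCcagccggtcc
Bmp4: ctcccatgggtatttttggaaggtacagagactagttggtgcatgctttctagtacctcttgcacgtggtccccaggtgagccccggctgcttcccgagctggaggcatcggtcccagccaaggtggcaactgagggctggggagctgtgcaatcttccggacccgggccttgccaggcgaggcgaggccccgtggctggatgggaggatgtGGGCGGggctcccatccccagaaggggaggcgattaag
Tgfbr1: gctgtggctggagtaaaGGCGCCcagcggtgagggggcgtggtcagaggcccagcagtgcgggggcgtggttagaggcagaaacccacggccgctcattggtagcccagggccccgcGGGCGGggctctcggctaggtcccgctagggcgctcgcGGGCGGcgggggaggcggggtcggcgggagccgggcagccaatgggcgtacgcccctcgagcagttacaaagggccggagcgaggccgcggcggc
Tgfbr2: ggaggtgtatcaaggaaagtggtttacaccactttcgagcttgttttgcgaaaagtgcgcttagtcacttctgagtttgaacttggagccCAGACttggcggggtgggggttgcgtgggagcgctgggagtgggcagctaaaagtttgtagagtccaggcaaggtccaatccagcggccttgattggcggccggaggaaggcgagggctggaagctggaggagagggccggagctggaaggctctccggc
The Tgfb1 window held 5 GC boxes, 164, 123, 67, 36 and 16 bases before the start, and 75.2% of its bases are G or C. The Bmp4 window held 1 GC box, 38 bases before the start, at 63.2% G or C. The Tgfbr1 window held 2 GC boxes and 1 GGCGCC, and the Tgfbr2 window held 1 CAGAC. Among 32851 RefSeq promoter windows of the same length, 42.2% held CAGAC, 9.59% GGCGCC, 32.7% the GC box and 6.75% TGANTCA. These matches describe the letters of the windows only.

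The RNA of the targeted gene did not follow every label. Mcu (chr10:59446984-59616692, minus strand) stood at 14.4, 15.2 and 13.1 TPM in the re-expressing libraries of line 1151 and at 16.6, 15.1 and 13.3 TPM in its knockout-labelled libraries, which overlap (log2 difference 0.07, adjusted p = 0.581 by limma). In line 2838, Mcu stood at 68.4 to 81.2 TPM in wild-type clone 15, 59.3 to 96.3 in clone 22, 113 to 122 in the library group labelled knockout clone 17 and 10.5 to 12.3 in knockout clone 42. RNA does not measure the protein, and the directions below are those between labels. Of 9 markers of pancreatic tumour epithelium, 7 to 9 reached 1 TPM in each group, at a summed 4875 to 7427 TPM. Epcam and Cldn4 reached it only under the knockout label of line 1151 (means of 1.33 and 6.15 TPM). None of 7 fibroblast markers reached 1 TPM, at a sum under 1 TPM in each library with Col1a2 and Lum at 0. Of 6 immune markers, 1 did, Cd68, at group means of 1.37 to 5.71 TPM, with Adgre1 and Cd3e at 0. Of 4 endothelial markers, 1 reached 1 TPM in each label of line 1151, but a different one. Cdh5 stood at 4.84, 4.63 and 5.31 TPM in the re-expressing libraries and at 0, 0 and 0.0170 TPM under the knockout label, and Kdr at 0.723, 0.859 and 0.720 and at 8.24, 8.66 and 8.63 TPM. The 4 summed to 5.60 to 6.10 and 8.32 to 8.77 TPM, and their part in the results was not tested. Of 4 acinar markers, 1 (Cela1) reached 1 TPM in line 2838, where the sum was 9.21 to 28.8 TPM. Cpa1, Prss1 and Amy2a5 were at 0.

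Replicate 3 of wild-type clone 22 stood apart from all others. Its median absolute log2 difference from the other libraries of its group was 0.60, against 0.084 to 0.33 elsewhere. Genes were put in 4 equal classes by transcript length. Those of the shortest class (up to 2063 bases) lay at a median log2 difference of 0.023 from the group's other libraries, and those of the longest (from 4718 bases) at -1.18. Among the members, Tgfbr2 (longest transcript 8092 bases) lay at -1.94 and Tgfbr1 (5756 bases) at -1.66, while Id1 (1160 bases) lay at 0.50 and Id3 (1278 bases) at 0.45. Id2, at 1969 bases, lay at -0.35, and Tgfb2, at 5116 bases and under 1 TPM, at -0.07. Calls that involve this clone are given with and without it.

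**Figure D1:**
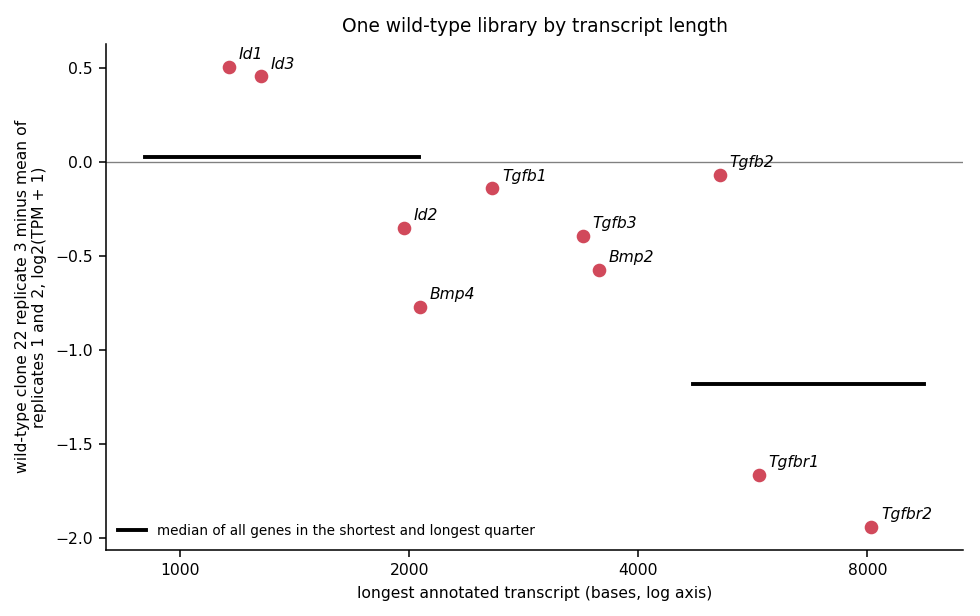
Log2(TPM + 1) of each gene in wild-type clone 22 replicate 3 minus the mean of replicates 1 and 2 (vertical axis), against the length of its longest annotated transcript in bases (log axis). Points are the 10 genes and the bars are medians over all genes of the shortest and longest length classes; the receptors Tgfbr1 and Tgfbr2 lie lowest, at -1.66 and -1.94, and Id1 and Id3 highest, at 0.50 and 0.45.

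By the median over the 18 libraries, the 3 Id genes were the most abundant members and Tgfb2 the least, although in the re-expressing cells Tgfb1 (54.9 TPM) lay above Id3 (33.2 TPM). Id1 ranged from 124 to 682 TPM (median 384), Id2 from 99.1 to 633 (median 256) and Id3 from 30.4 to 149 (median 105). Tgfb1 had a median of 67.4 TPM, Tgfbr2 of 47.3, Bmp4 of 31.5 and Tgfbr1 of 19.2. Bmp2 (median 4.98) and Tgfb3 (median 3.54) were lower, and Tgfb2 (median 0.705) reached 1 TPM in 6 of the 18 libraries.

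**Figure D2:**
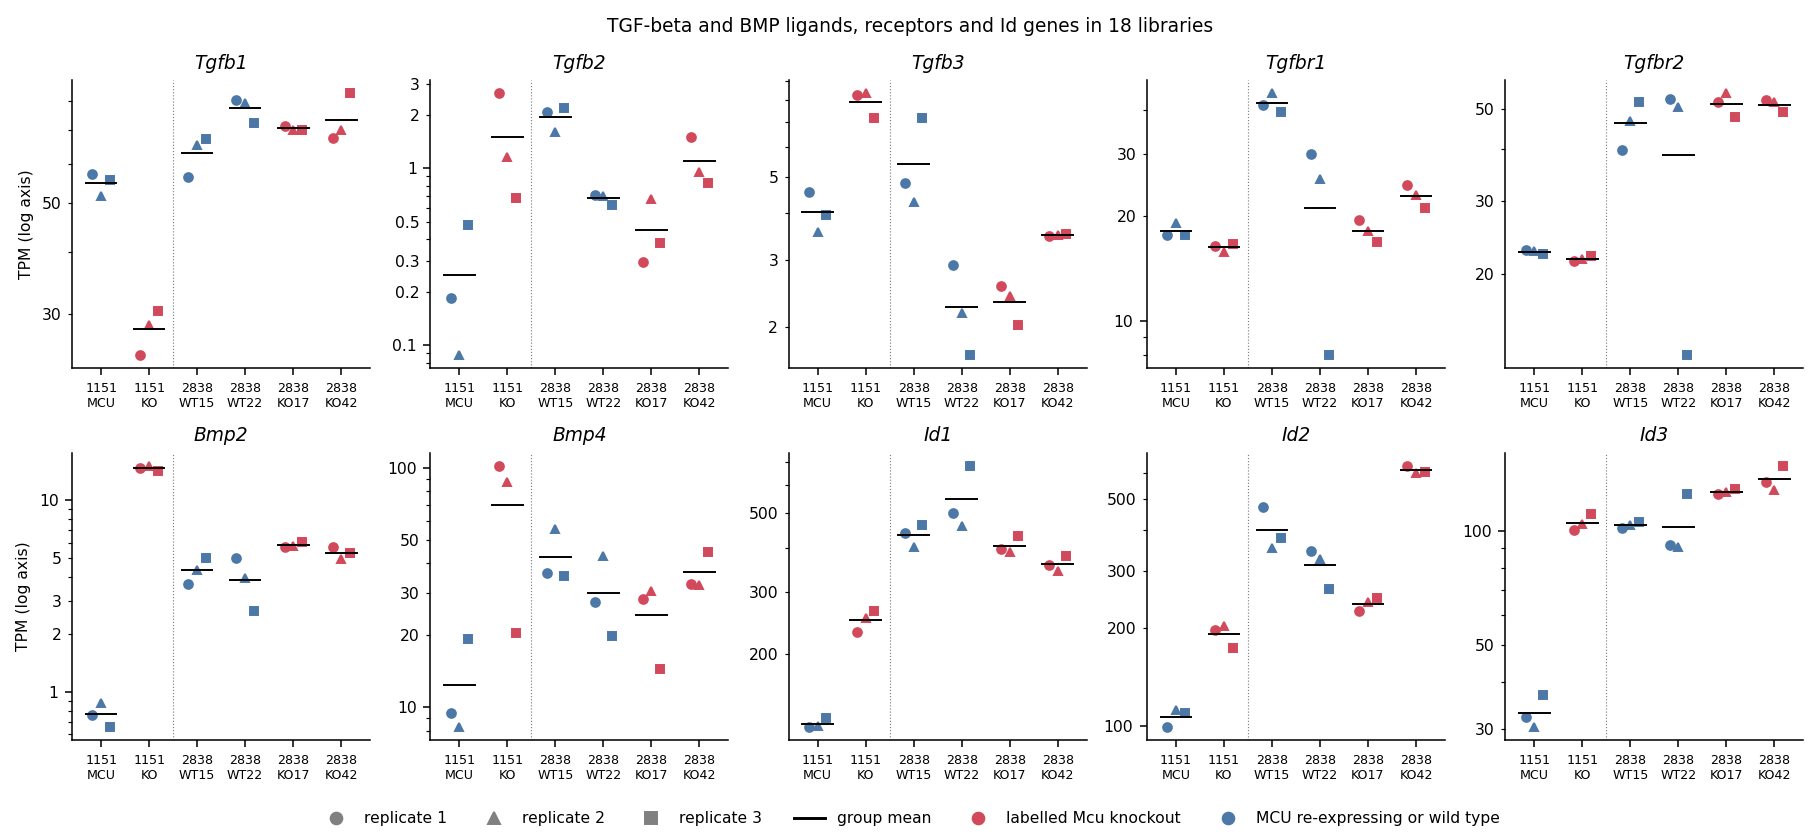
TPM of each of the 10 genes (log axis, with its own range per panel) in the 6 groups, 1 point per library with its replicate number as the symbol and a bar at the group mean; KO is the knockout label, MCU re-expressing, WT wild type. In line 1151 the points of the 2 labels do not overlap for any of the genes, and in line 2838 those of the knockout and wild-type labels overlap for every one.

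In line 1151, knockout-labelled cells had less Tgfb1 and more Tgfb3, Bmp2, Bmp4, Id1, Id2 and Id3 RNA than re-expressing cells, and the receptors were not called. The test was limma on log2(TPM + 1), with p-values adjusted by Benjamini-Hochberg over all 11630 genes that reached 1 TPM in at least 3 of the 6 libraries, with 0.05 as the limit on the adjusted p of a called gene. Of the 9 members tested, 6 were called higher and 1 lower. In the same comparison 61.0% of all genes were called, 34.0% higher and 27.0% lower, so the count of members called is near the background and says nothing particular about these genes. Their median log2 difference was 0.84 against 0.05 over all genes tested. With a log2 difference of at least 1 also required, 3 members were called (Bmp2, Bmp4 and Id3), against 13.5% of all genes. The libraries of the 2 labels did not overlap for any of the 10 members, Tgfb2 included, 7 higher and 3 lower under the knockout label, where 67.2% of all genes tested did not overlap (37.4% higher, 29.8% lower).

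Tgfb1, the TGF-beta ligand with the highest level in every group, stood at 57.3, 51.6 and 55.7 TPM in the re-expressing libraries and at 24.9, 28.5 and 30.5 TPM in the knockout-labelled ones. All 3 knockout-labelled values lay below all 3 others. In bulk RNA, fewer cells that express a gene and less RNA per cell cannot be told apart. The log2 difference was -0.95 (SE 0.087, adjusted p = 1.06e-04 by limma), a 1.93-fold lower level. Tgfb3, which signals through the same receptors, moved the other way, from 4.57, 3.57 and 3.95 TPM to 8.28, 8.34 and 7.18 TPM. Its libraries did not overlap and the log2 difference was 0.83 (SE 0.108, adjusted p = 5.65e-04). Tgfb2, the isoform that needs the co-receptor betaglycan for efficient binding, stood at 0.185, 0.0883 and 0.479 TPM in the re-expressing libraries and at 2.65, 1.15 and 0.680 TPM in the knockout-labelled ones. It missed the filter on low values and was not tested in this line.

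The shares of the 3 ligands differed between the labels, as the plot of isoform shares shows. Tgfb1 made up 92.8% of the summed Tgfb1, Tgfb2 and Tgfb3 TPM in the re-expressing cells (92.3 to 93.4% over the 3 libraries) and 74.7% under the knockout label (69.5 to 79.5%). Tgfb3 made up 6.79% (6.45 to 7.37%) and 21.3% (18.7 to 23.1%). The sum of the 3 ligands fell from 59.2 ± 3.47 to 37.4 ± 1.39 TPM (SD, n = 3), which was not tested as a sum. In line 2838, Tgfb1 made up 87.8 to 96.9% of the sum in each library, whichever the label.

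**Figure D3:**
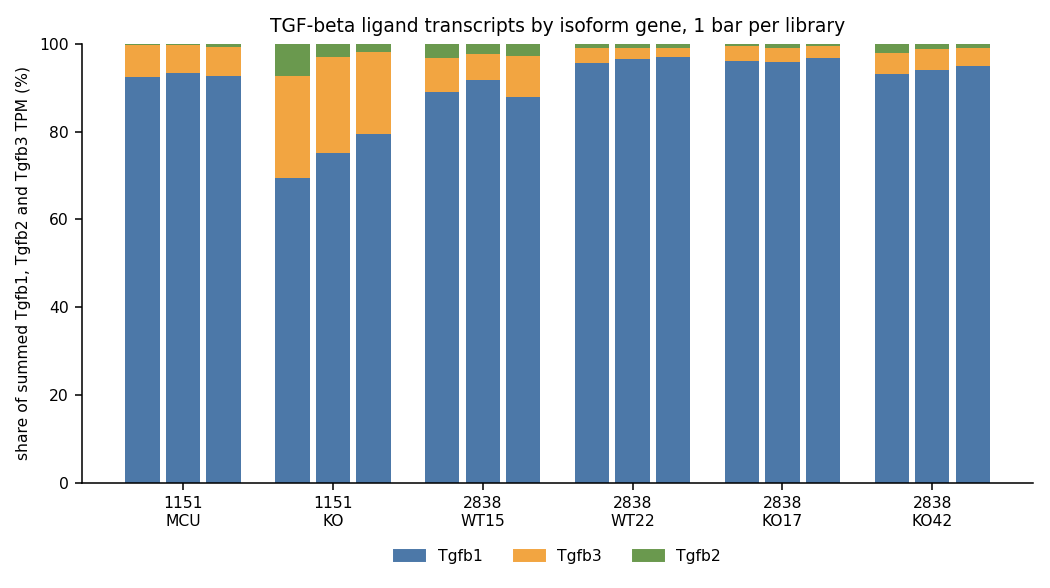
Share of the summed Tgfb1, Tgfb2 and Tgfb3 TPM (vertical axis, %) that each isoform gene makes up, 1 bar per library in the 6 groups. The 3 knockout-labelled bars of line 1151 hold 69.5 to 79.5% Tgfb1, and the bars of the other groups hold 87.8 to 96.9%.

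Receptor RNA differed less. Tgfbr1, the type I receptor kinase, stood at 17.6, 19 and 17.6 TPM in the re-expressing libraries and at 16.4, 15.8 and 16.6 TPM in the knockout-labelled ones. The values did not overlap, but the log2 difference of -0.14 was not called (95% interval -0.30 to 0.01, adjusted p = 0.0922 by limma). It was called lower under median-of-ratios scaling (-0.21, adjusted p = 0.0258) and quantile normalization (-0.19, adjusted p = 0.0395). Tgfbr2, the type II receptor that binds ligand first, stood at 22.9, 22.7 and 22.4 TPM and at 21.5, 21.7 and 22.1 TPM. Its log2 difference was -0.06 (95% interval -0.19 to 0.07, adjusted p = 0.408).

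Of the BMP ligands, Bmp2 showed the largest difference among the members. Its level was 0.763, 0.875 and 0.654 TPM in the re-expressing libraries and 14.8, 15.2 and 14.3 TPM in the knockout-labelled ones. The log2 difference was 3.16 (SE 0.090, adjusted p = 7.84e-07 by limma) on a scale that understates folds of low genes. Bmp2 passed the filter only through the knockout-labelled libraries, so that it had to differ once it was tested. Bmp4 varied more between libraries of 1 label than nearly all other genes: 9.44, 8.25 and 19.4 TPM in the re-expressing libraries and 102, 87.3 and 20.4 TPM in the knockout-labelled ones. The SD of its log2 level exceeded that of 99.4% of the genes tested under the knockout label and of 98.5% in the re-expressing libraries. Replicate 3 of each label differed from the other replicates, lower under the knockout label and higher in the re-expressing cells, and these 2 libraries lay next to each other, at 20.4 and 19.4 TPM.

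The log2 difference of Bmp4 was 2.21 (SE 0.617, adjusted p = 0.0179 by limma). The call was lost when replicate 1 or 2 of either label was left out, with values of 1.79 and 1.90 without knockout-labelled replicates 1 and 2 and of 2.08 and 1.99 without re-expressing replicates 1 and 2, and adjusted p from 0.0580 to 0.0616. Without knockout-labelled replicate 3 the difference was 2.93 (adjusted p = 5.83e-04), and without replicate 3 of both labels 3.28 (adjusted p = 8.59e-05). For the other called members, no library left out in turn changed the call.

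All 3 Id genes were higher under the knockout label. Id3 rose from 32.3, 30.4 and 37.0 TPM to 100.5, 104 and 111 TPM, with a log2 difference of 1.64 (SE 0.083, adjusted p = 8.85e-06 by limma), a 3.11-fold change. Id1 rose from 124, 125 and 133 TPM to 232, 254 and 265 TPM (log2 difference 0.97, SE 0.066, adjusted p = 2.93e-05), and Id2 from 99.1, 112 and 109.8 TPM to 198, 204 and 174 TPM (0.84, SE 0.080, adjusted p = 1.31e-04). None of the 3 had overlapping libraries. The sum of the 3 genes was 267.5 ± 11.8 TPM in the re-expressing cells and 547.5 ± 15.9 TPM under the knockout label (SD, n = 3). Id3 made up 12.4% of it in the former (11.4 to 13.2%) and 19.2% in the latter (18.5 to 20.1%), while the share of Id1 was 47.7% and 45.7%.

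In line 2838, CRISPR knockout clones were compared with wild-type clones, which differs from the re-expression in line 1151. The comparison was read in 2 ways: the knockout clone means against the wild-type clone means, with the clone as the unit, and a second reading over the 12 libraries in which each knockout clone had to differ from each wild-type clone in the same direction, with the library as the unit of spread. The 4 pairs of the latter share clones. By limma, 0 of the 10 members were called on clone means, where 0.0763% of 11795 genes were, and 0 members (662 of all genes) had an unadjusted p under 0.05. Over all pairs 0 members were called as well, where 1.01% of all genes were, and at an unadjusted p under 0.05 there was 1 member, Id3 (342 of all genes). The libraries of the knockout and wild-type clones overlapped for all 10 members, while they did not for 5.04% of all genes tested.

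**Figure D4:**
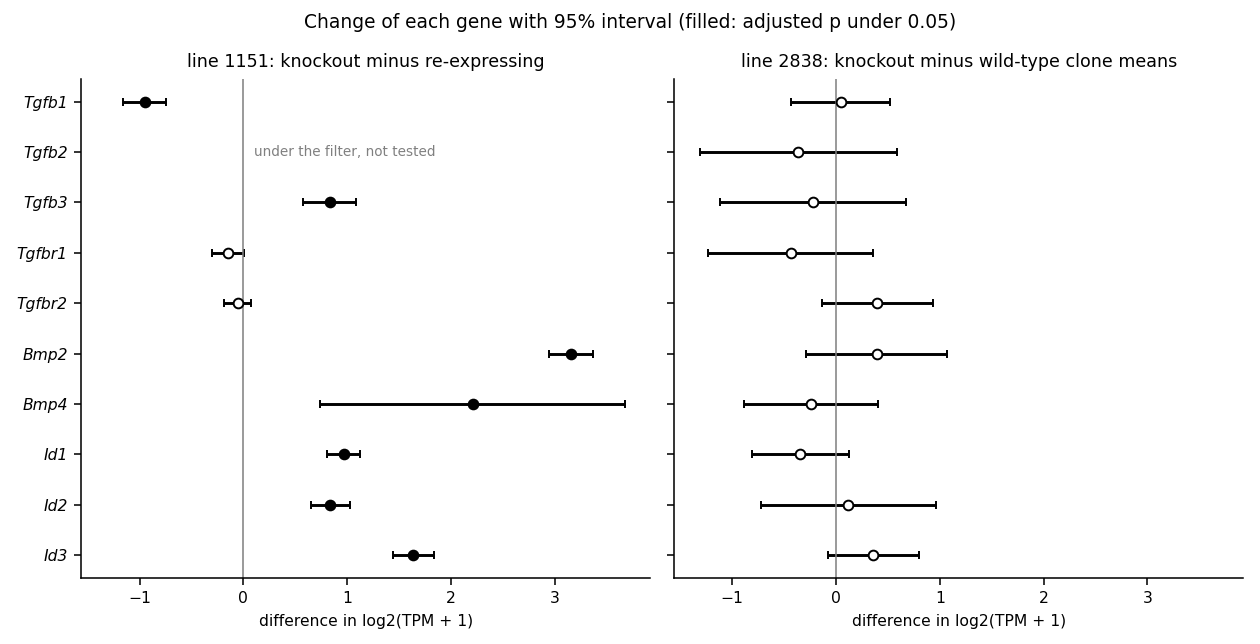
Difference in log2(TPM + 1) of each gene, knockout minus re-expressing in line 1151 (left) and knockout clone mean minus wild-type clone mean in line 2838 (right), with 95% intervals of the limma fits; filled points had an adjusted p under 0.05. In line 1151, 7 points are filled, from -0.95 for Tgfb1 to 3.16 for Bmp2, and in line 2838 none is and every interval holds 0.

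Clone-mean differences in line 2838 had wide intervals. That of Tgfb1 was 0.04 (95% interval -0.43 to 0.52), and its sign turned under other scalings. Bmp2 stood at 3.64, 4.36 and 4.97 TPM in wild-type clone 15, 5.00, 3.93 and 2.65 in clone 22, 5.71, 5.79 and 6.09 in knockout clone 17 and 5.70, 4.96 and 5.31 in clone 42. The lowest knockout value lay just under the highest wild-type one. Its clone-mean difference was 0.39 (95% interval -0.29 to 1.07, adjusted p = 0.999 by limma). Bmp4, at 14.4 to 55.7 TPM over the 12 libraries, had a difference of -0.24 (95% interval -0.89 to 0.40).

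Id3 came closest to a call between the labels of line 2838. It stood at 102, 104 and 106 TPM in wild-type clone 15, at 91.8, 90.6 and 125.2 in clone 22, at 125.2, 127 and 129 in knockout clone 17 and at 135, 128 and 149 in clone 42. Replicate 3 of clone 22 reached the lowest knockout library, and the other wild-type libraries lay below all 6 of the knockout clones. The clone-mean difference was 0.36 (95% interval -0.08 to 0.80, adjusted p = 0.999 by limma), and the largest adjusted p over the 4 pairs was 0.191. Without replicate 3 of clone 22, Id3 was the 1 member called over all pairs, at differences of 0.29, 0.47, 0.40 and 0.58 (largest adjusted p = 0.00591), where 3.86% of all genes were called. The clone-mean reading still called 0 members without that library.

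Id1 was lower in both knockout clone means than in both wild-type ones, the opposite sign to line 1151, but was not called, and Id2 did not follow the label. Id1 stood at 344 to 378 TPM in knockout clone 42, 389 to 431 in clone 17, 402 to 464 in wild-type clone 15 and 462 to 682 in clone 22, with a clone-mean difference of -0.34 (95% interval -0.81 to 0.12). Its 4 pair differences were -0.10, -0.41, -0.27 and -0.59, of which that of clone 42 from clone 22 had an adjusted p of 0.0184 by limma and the others 0.101 to 0.734. Without replicate 3 of clone 22 the clone-mean difference was -0.26. Id2 had the widest spread between the knockout clones of all members: 226, 240.1 and 248 TPM in clone 17 and 633, 599.8 and 607 TPM in clone 42. The wild-type clones lay between them, at 472, 353 and 380.2 TPM in clone 15 and 347, 327 and 264 TPM in clone 22; libraries of clones next to each other in the order of means did not overlap. The difference of clone 42 from clone 17 was 1.36 (SE 0.129, adjusted p = 5.25e-05 by limma), and Id2 was the 1 member called between the knockout clones, where 17.2% of all genes were (8.23% higher). Against wild-type clone 15, clone 17 was lower (-0.74, adjusted p = 0.00414) and clone 42 higher (0.62, adjusted p = 0.00919). Against clone 22, clone 17 was not called (-0.38, adjusted p = 0.110) and clone 42 was higher (0.98, adjusted p = 7.67e-04). Id2 made up 55.3% of the summed Id TPM in clone 42 and 30.9% in clone 17. With clone 17, whose Mcu RNA was not reduced, left out, Id2 was the 1 member called on clone means (0.80, adjusted p = 0.0283). The knockout arm is then 1 clone, assumed to vary like the wild-type clones, and 3.40% of all genes were called, against 0.0763% with all 4 clones. With clone 42 left out its difference was -0.56 (adjusted p = 0.302).

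The wild-type clones differed from each other in the minor ligands. Tgfb3 stood at 4.81, 4.29 and 7.16 TPM in clone 15 and at 2.91, 2.17 and 1.68 TPM in clone 22 (log2 difference -0.97, SE 0.203, adjusted p = 0.0390 by limma). Tgfb2 stood at 2.08, 1.60 and 2.20 TPM and at 0.711, 0.698 and 0.622 TPM (-0.81, SE 0.182, adjusted p = 0.0482). These 2 members were called lower in clone 22, where 1.92% of all genes were called (1.34% lower), and neither had overlapping libraries. Tgfb2 reached 1 TPM in every library of clone 15 and in none of clone 22. Without clone 15 it would not have passed the filter, so its call is not independent of that filter. The median log2 difference of all genes tested was -0.16. Both calls were lost without any 1 library of clone 15, or without replicate 2 of clone 22, and Tgfb2 also without replicate 1 of clone 22, with log2 differences of -1.10 to -0.75 in these fits. Without replicate 3 of clone 22 both were called, and with them Tgfbr1.

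Tgfbr1 stood at 41.2, 44.5 and 39.5 TPM in wild-type clone 15 and at 29.9, 25.4 and 8.02 TPM in clone 22, and at 19.4, 18.1 and 16.8 TPM in knockout clone 17 and 24.4, 22.8 and 21 TPM in clone 42. Clone 15 lay above every other library. Apart from replicate 3 of clone 22, the wild-type libraries (25.4 to 44.5 TPM) lay above all those of the knockout clones (16.8 to 24.4 TPM). Without that replicate, Tgfbr1 was still not called over all pairs (largest adjusted p = 0.0830 by limma). The difference of clone 22 from clone 15 was -1.14 (adjusted p = 0.152) with all libraries and -0.58 (adjusted p = 0.0108, 6.82% of all genes called) without replicate 3 of clone 22. Tgfbr2 stood at 39.8 to 52.1 TPM in clone 15, 52.9, 50.5 and 12.8 TPM in clone 22, 47.9 to 54.7 in clone 17 and 49.2 to 52.7 in clone 42. Its clone 22 value changed sign against clone 15, from -0.48 to 0.17, when replicate 3 was left out. Between knockout and wild-type clone means, Tgfbr1 differed by -0.44 (95% interval -1.24 to 0.36) and Tgfbr2 by 0.40 (-0.14 to 0.93). These differences also rested on replicate 3 of clone 22. Without it they were -0.72 for Tgfbr1 and 0.074 for Tgfbr2, and neither was called.

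The order of the group means differed from gene to gene. For Bmp2 the re-expressing cells of line 1151 were lowest and its knockout-labelled cells highest, with all 4 clones of line 2838 between them. Wild-type clones 22 and 15 overlapped each other, as did clone 15 and knockout clone 42. For Id3 the re-expressing cells of line 1151 lay below every other library, and its knockout-labelled cells (105 ± 5.25 TPM, SD, n = 3) overlapped both wild-type clones of line 2838 (104 ± 2.07 and 103 ± 19.6 TPM). For Tgfb1 the knockout-labelled cells of line 1151 were lowest, and the re-expressing cells (54.9 ± 2.90 TPM) overlapped wild-type clone 15 (63.0 ± 5.85 TPM). For Id1 and Id2 both groups of line 1151 lay below all clones of line 2838.

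Whether the change with the label differed between the lines was tested on the 6 group means. By limma, 0 of the 10 members were called, where 1.10% of 12458 genes were, and 5 members (Bmp2, Bmp4, Id1, Id3 and Tgfb1; 1738 of all genes) had an unadjusted p under 0.05. The change of Bmp2 was larger in line 1151 by 2.77 (95% interval 1.85 to 3.69, adjusted p = 0.0649), that of Id3 by 1.28 (0.68 to 1.87, adjusted p = 0.119) and that of Id1 by 1.31 (0.49 to 2.13, adjusted p = 0.198). The change of Tgfb1 in line 1151 minus that in line 2838 was -0.996 (95% interval -1.78 to -0.21, adjusted p = 0.272). Without replicate 3 of clone 22, Bmp2 was called (2.86, adjusted p = 0.0451). A p that misses the threshold does not show that the lines responded alike, and the test rests on 6 means. Each label of line 1151 is 1 mean, so the spread comes from the 4 clones of line 2838 alone.

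Other genes of the pathway, 97 in lists by role, were read in the same fits. In line 1151, 56 passed the filter, of which 32 were called higher and 9 lower, that is 73.2% against the 61.0% of all genes, with a median log2 difference of 0.39 against 0.05. Of those called higher, 6 (Atoh8, Dlx2, Gdf15, Hey1, Lefty1 and Thbs1) passed the filter only through the knockout-labelled libraries and so had to differ, as did Chrd, lower, through the re-expressing ones. These lists were chosen with results of these data known and are described by counts only. Of 3 other TGF-beta and activin ligands tested, 2 were higher and 1 lower: Inhba, the activin A subunit, rose from 2.32 ± 0.427 to 5.65 ± 1.29 TPM (0.99, adjusted p = 0.00237) and Gdf11 fell from 9.83 ± 0.348 to 3.45 ± 0.645 TPM (-1.29, adjusted p = 1.03e-04, SD, n = 3 throughout). None of the 11 other BMP and growth differentiation ligands passed the filter.

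Among receptors, 4 of 8 were called higher and 0 lower in line 1151, a share of 50% against the 61.0% of all genes. The largest difference was that of Acvr1, a type I receptor for BMPs and activins, from 16.3 ± 1.41 to 31.6 ± 0.584 TPM (0.91, adjusted p = 7.08e-05 by limma). Of 7 genes of latency and activation, 5 were higher and 2 lower, so 100% were called, and of the antagonists that follow 87.5% were. Thbs1, thrombospondin 1, which can release TGF-beta from its latent complex, rose from 0.127, 0.0780 and 0.204 TPM to 30.3, 31.7 and 28.5 TPM (4.78, adjusted p = 2.23e-07). Ltbp4, a latent TGF-beta binding protein, fell from 6.57 ± 0.410 to 5.10 ± 0.436 TPM (-0.31, adjusted p = 0.0229). Of 8 antagonists, 4 were higher and 3 lower, with Lefty1, an inhibitor of Nodal signalling, at 0.145, 0.0416 and 0.205 TPM against 12.3, 13.9 and 11.7 TPM (3.59, adjusted p = 1.15e-06) and the BMP antagonist Nbl1 at 33.1 ± 4.09 against 18.4 ± 2.78 TPM (-0.82, adjusted p = 0.00147).

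Of 18 Smads and intracellular regulators, 9 were higher, 2 lower and 7 not called in line 1151. The share called was 61.1%, near the 61.0% of all genes. Skil, a Smad corepressor, rose from 12.6 ± 0.363 to 25.7 ± 0.691 TPM (0.98, adjusted p = 2.00e-05), and Tgif2, another corepressor, fell from 12.5 ± 0.571 to 4.99 ± 0.669 TPM (-1.18, adjusted p = 8.09e-05). Of 8 TGF-beta target genes, 5 were higher and 1 lower (75% called). Tgm2, a transglutaminase, fell from 27.9 ± 1.86 to 21.5 ± 0.152 TPM (-0.36, adjusted p = 0.00306). Of 5 BMP targets other than the members, 3 were higher and 0 lower (60% called). Those 3, Atoh8, Dlx2 and Hey1, passed the filter only through the knockout-labelled libraries and so had to differ. The other targets tested, Smad6 and Smad7, were not called. Atoh8, a helix-loop-helix factor, rose from 0.713 ± 0.0193 to 13 ± 1.51 TPM (3.02, adjusted p = 1.84e-06 by limma). Of the 3 E proteins that Id proteins bind, Tcf12 was called higher (0.56, adjusted p = 0.0159 by limma) and the other 2 were not called (33.3% called).

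**Figure D5:**
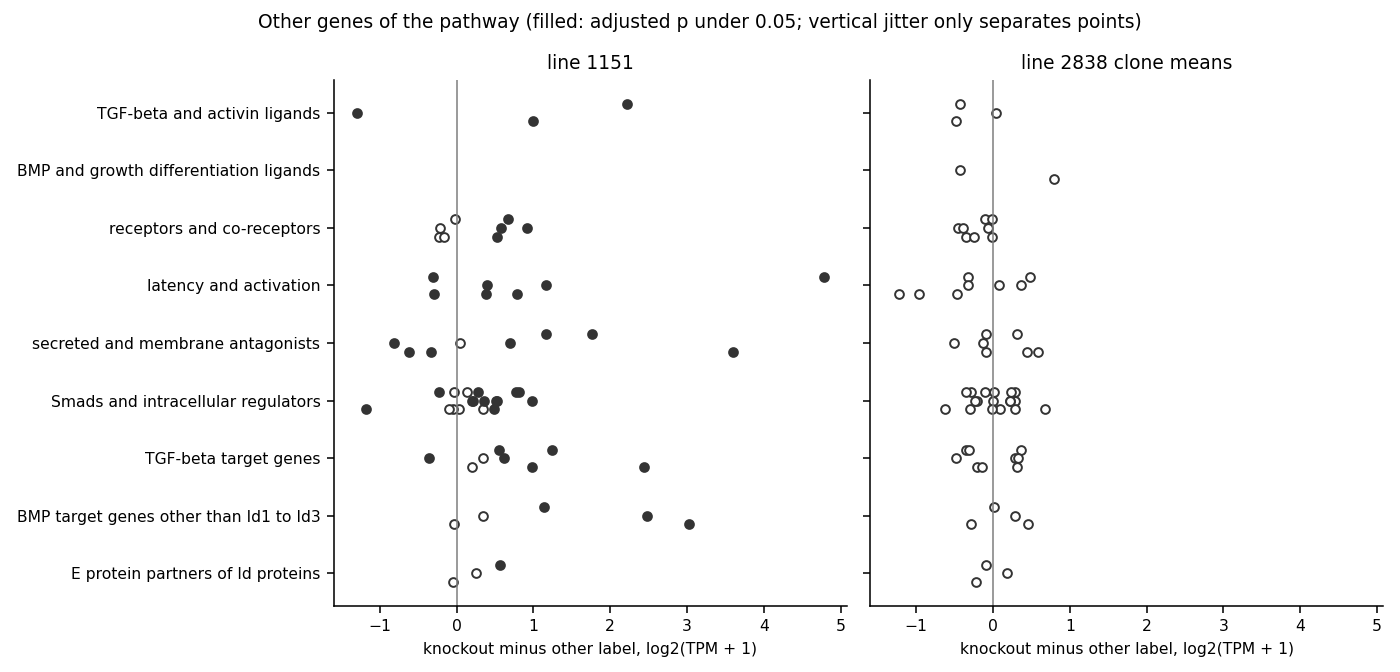
Difference in log2(TPM + 1) between knockout and other label (horizontal axis) for the other pathway genes tested, by role, in line 1151 (left) and on clone means in line 2838 (right); filled points had an adjusted p under 0.05 and a gene in 2 roles is drawn in both. In line 1151, 41 of 56 genes are filled, with Thbs1 farthest right at 4.78, and in line 2838 none of 57 is.

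In line 2838, 57 of the other pathway genes were tested. On clone means 0 were called by limma, where 0.0763% of all genes were. Over all pairs, where 1.01% of all genes were called, 1 was, Ltbp4, lower under the knockout label. It stood at 7.17, 11.9 and 8.01 TPM in wild-type clone 15, 10.1, 12.1 and 12.7 in clone 22, 5.41, 5.03 and 4.53 in knockout clone 17 and 2.70, 3.15 and 2.51 in clone 42. The labels did not overlap, and the mean difference was -1.23 (largest adjusted p over the pairs 0.0361). The call was lost without any 1 library of the knockout clones, or without replicate 2 or 3 of wild-type clone 15. Without replicate 3 of clone 22, 6 pathway genes were called over all pairs, where 3.86% of all genes were. All 6 were lower: Acvr1, Ltbp4, Smad3, Smad6, Tgif1 and Thbs1. The share of lower calls over all genes was not taken in that fit. Between the knockout clones, 12 pathway genes were called, 3 higher and 9 lower in clone 42, a share of 21.1% against 17.2% of all genes.

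The genes whose 6 group means ran most like those of each member were found among 10145 genes, as the smallest root-mean-square difference in centred log2(TPM + 1). These are descriptions over 6 means and say nothing of function. Tgfb1 was nearest to H2az1 (0.055), Pigc and Pde6d, Tgfb2 to Frs3 (0.038), and Tgfb3 to Antxr1 (0.128). Tgfbr1 was nearest to Klhdc8b (0.099) and Tgfbr2 to Per2 (0.066). The means of wild-type clone 22 include replicate 3, in which Tgfbr2 stood at 12.8 TPM against 52.9 and 50.5 TPM in the others. The part of that library in these matches was not tested. The closest profile to Bmp2 was Clmn (0.222), which stood at 0.506 TPM in the re-expressing cells, 14.4 TPM under the knockout label of line 1151 and 3.80 to 7.77 TPM in the 4 clones of line 2838. Bmp4 was nearest to Pfn2 (0.170), Id1 to Hapln4 (0.159), Id2 to Pilrb2 (0.182) and Id3 to Rsph9 (0.120) and Tnfaip3 (0.168).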

How the data were processed

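RNA of 18 libraries in 6 groups of 3 was measured by RNA-seq. The authors deposited 1 table of gene-level TPM, per the labels and the file header. Salmon, DESeq2 and the build mm10 are named in the submitters' processing notes, and versions and annotation are not given in the sources used here. TPM keeps no read depth, so the depth of each library is unknown and no counting interval could be given. Groups were taken from the labels, and 0 columns were left unmapped.

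Values were tested as log2(TPM + 1) with limma-trend (limma 3.58.1 in R 4.3.3), on genes with at least 1 TPM in at least 3 libraries of a comparison, adjusted by Benjamini-Hochberg over all genes tested and called at 0.05. Line 1151 (6 libraries) was fitted alone. Line 2838 was fitted on 4 clone means and on 12 libraries with 1 mean per clone, called where all 4 knockout and wild-type pairs passed in 1 direction. The difference between lines was fitted on the 6 group means. The all-genes calls were tested on simulated data: of 50 genes changed by a log2 difference of 1, 90% were recovered in the 1151 comparison among 11431 genes, 38% on the 2838 clone means among 11837, 62% over all pairs among 11836 and 8% for the difference between lines among 11978. Wrong calls were 8 of 188, 18 of 137, 37 of 172 and 24 of 114. Simulated clones had the same spread for every gene, with none in the 1151 comparison, and only genes above a set level were changed. Tgfb2, Tgfb3 and Bmp2 lie below that level. The clone-mean SEs of Tgfb2 (0.423), Tgfb3 (0.400), Id2 (0.375) and Tgfbr1 (0.355) exceed the simulated spread between clones. The recovered shares may be too high for such members.

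The genes named are the 10 members, Mcu, in each pathway list the called gene with the largest change in each direction in line 1151 with at least 5 TPM in the higher group, the pathway genes called between the 2838 labels, and the 3 nearest profiles of each member, of which 1 to 3 are printed. The pathway genes named as called without 1 library, and those named between the knockout clones, were chosen after their values were seen. A gene that the rule names is not reported here. The members and lists were chosen with earlier results of these data known. Alternatives were a pseudocount of 0.1, no filter or a filter at a mean of 5 TPM, scaling by median of ratios or quantiles, no variance trend, a replicate block, a fit of all 18 libraries, a minimum log2 difference of 1, and each library or clone left out after the filter was applied. Chosen after seeing the data were centring per chromosome and leaving out replicate 3 of both 1151 labels.

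Gene positions and transcript lengths came from GENCODE M21 (97.8% of genes matched a length) and promoter windows from RefSeq (GRCm38.p6). Of the members, 7 had a promoter entry, and Tgfb3, Bmp2 and Id1 had none. The windows of Id2 and Id3 lie within the annotated span of their own genes, and they and that of Tgfb2 are not printed.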

Additional observations from a re-analysis of the deposited data

How the results depend on the processing

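In line 1151 the 7 called members kept their calls under the other pseudocount, filters, scalings, variance prior, centring per chromosome and the fit of all 18 libraries. Requiring a log2 difference of at least 1 left 3. With each library left out in turn, 6 to 7 members and 36 to 44 pathway genes were called, where 54.1 to 63.4% of all genes were. In line 2838, that gave 0 to 1 members over all pairs (0 to 6 pathway genes) and 0 to 0 on clone means (0 to 0). It gave 1 to 1 between knockout clones (7 to 10) and 0 to 3 between wild-type clones (0 to 4). For the difference between lines it gave 0 to 1 (0 to 1). Of all genes, 0.00 to 0.161% were called on clone means and 0.848 to 6.82% between wild-type clones. The 1 member over all pairs and between lines came without replicate 3 of wild-type clone 22, where 3.86% and 1.27% were called. Without clone 17, the clone means gave 1 member, with 401 of 11795 genes called.

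The wild-type clone calls were the least stable. Members called numbered 0 with a pseudocount of 0.1 (1.23% of all genes called), 1 with no filter (1.62%) and 0 with a mean of at least 5 TPM (0.916%). They numbered 1 under median-of-ratios scaling (2.43%) and 1 under quantile normalization (2.57%). Pathway genes there numbered 0 with a pseudocount of 0.1 and 3 under quantile normalization. Between knockout clones, 2 members were called with no filter (10.5% of all genes called) and 2 with no variance trend (17.0%). Median-of-ratios scaling gave 19 pathway genes there (21.7%) and left 0 pathway genes over all pairs (1.64%). For the difference between lines, 1 member was called with no filter (Id3, 5.88% of all genes called) and 1 with a mean of at least 5 TPM (Bmp2, 1.40%). With the 18 libraries as the unit, where libraries of 1 clone count as replicates, 8 members and 33.6% of all genes were called. With a pseudocount of 0.1, 1 pathway gene was called (0.995%). The causes were not tested.

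Some small differences changed sign. In line 2838, Tgfb1 lay at -0.040 under median-of-ratios scaling, -0.021 under quantile normalization, -0.084 with centring per chromosome and -0.10 without clone 15, and ranged from -1.3e-04 to 0.073 with single libraries left out. Without clone 15, Tgfb2 lay at 0.044, Tgfb3 at 0.27, Tgfbr1 at 0.13 and Bmp4 at 0.019; without clone 17, Tgfb3 lay at 0.0012 and Bmp4 at 0.067. Id2 lay at -0.061 without clone 22, -0.56 without clone 42 and -0.10 with centring per chromosome. Between wild-type clones, Id3 lay at 0.13 under median-of-ratios scaling and Bmp2 at 0.19 under quantile normalization, and with libraries left out Id3 ranged from -0.18 to 0.047, Tgfbr2 from -0.82 to 0.17 and Bmp2 from -0.32 to 0.037. Between knockout clones, Tgfbr2 lay at 0.0069 under median-of-ratios scaling and 0.016 under quantile normalization, and ranged from -0.057 to 0.037, and Tgfb1 from -0.037 to 0.11.

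Replicate numbers did not pair the libraries: deviations of same-numbered libraries correlated at -0.146 to -0.0287 in line 1151 and -0.153 to 0.196 in line 2838. With the replicate block, 7 members were called in line 1151 (57.4% of all genes) and 0 between wild-type clones (1.23%). Over all pairs 0 members were called, and between knockout clones 1. Another scaling moved the share of higher among called genes in line 1151 from 55.8% to 48.8 to 50.6%, and no called member changed direction there. TPM carries no depth, so the precision of the low genes, Tgfb2 above all, is unknown.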

Other observations

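Knockout clones 17 and 42 of line 2838, which share a label, differed in several BMP and TGF-beta family genes outside the 10 members, chosen here after their values were seen. Gdf15, a divergent family member known as a stress hormone, stood at 23.4, 22.4 and 23.5 TPM in clone 17 and at 2.95, 2.62 and 3.94 TPM in clone 42 (log2 difference -2.54, adjusted p = 1.27e-05 by limma). Bmp8b, a BMP ligand, stood at 20.1, 17.7 and 19.6 TPM and at 0.993, 1.23 and 1.36 TPM (-3.20, adjusted p = 1.23e-05). Atoh8, a BMP target, was higher in clone 42, as Id2 was. It stood at 30.2, 27.9 and 29.2 TPM against 11.3, 11.4 and 9.99 TPM in clone 17 (1.34, adjusted p = 1.25e-04 by limma). Of 4 BMP targets tested outside the members, it was the 1 called between these clones. Id1 (-0.17) and Id3 (0.11) were not called either. The wild-type clones held Gdf15 at 9.04 to 18 TPM, between the 2 knockout clones.

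Lefty1 and Thbs1 were under 1 TPM only in the re-expressing cells of line 1151. They stood at 21.3 to 48.8 and 8.77 to 53.0 TPM over the 12 libraries of line 2838. Thbs1 stood at 14.6 to 20.1 TPM in the knockout clones. In the wild-type clones it stood at 34.4 to 53.0 TPM, apart from replicate 3 of clone 22 (8.77 TPM). Without that library, Thbs1 was called lower in the knockout clones over all pairs, where 3.86% of all genes were called.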
